A study of Mus musculus with 6 samples.

Results

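The genes described here are 36 markers and effectors of macrophages and monocytes, listed by name and read out in 6 mouse tumors that model synovial sarcoma. All 36 were among the 17312 genes of the deposited table, and 35 of them were among the 13873 genes tested. The gene not tested, Gpnmb, reached an FPKM of 1 in fewer than 3 tumors. FPKM is a fragment count scaled to gene length and library size. Synovial sarcoma is a soft tissue cancer driven by a fusion of SS18, a subunit of a chromatin remodelling complex, with an SSX protein. The mice carried an allele of either SS18-SSX1 or SS18-SSX2 that Cre recombinase switches on. TATCre, a Cre protein that enters cells, was injected in front of the shin in both genotypes, and the leg tumors, 3 per genotype, were collected about 1 year later. The labels name no further agent or allele, no strain, sex or age at injection, and no cell type in which the fusion was switched on. Whether each tumor came from its own mouse is not said, so the samples may not be independent. A p-value reflects the spread among these samples, which may be technical in part. Each tumor was sequenced as bulk tissue, so fewer macrophages and less of a gene's RNA per macrophage cannot be told apart.

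Macrophages and monocytes are phagocytes of the myeloid lineage. The transcription factor PU.1, encoded by Spi1, drives their development and binds DNA at sites with a purine-rich core, and the growth factor CSF1 keeps them alive through its receptor CSF1R. Circulating monocytes enter tissue through chemokine receptors such as CCR2 and become macrophages there, which take up debris through scavenger and Fc receptors, secrete complement C1q and break down their cargo in lysosomes. Soft tissue sarcomas are commonly infiltrated by macrophages.

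Promoters of the listed genes were searched for a motif they may share. RefSeq start sites on GRCm38.p6 were used for 28 of the 36 genes, with 35 windows of 250 bases before a start site. Tyrobp, C1qa, Ctsb, Cd14, Adgre1, Spi1, Itgb2 and Csf1r had no window in the search. Cd14 and Csf1r lie on the same chromosome. Their absence may reflect a filter on that chromosome applied to the listed genes only, and not a missing start site. The listed windows and those of all genes may therefore not have been selected alike, and their shares of matches are not strictly comparable. The letters GAGGAA, the purine-rich core of many PU.1 sites, or their reverse complement TTCCTC stood in 18 of the 35 windows (51.4%), belonging to 16 genes. Over all genes with a window, 7639 of 32851 windows of the same length (23.3%) held them. The longer form GAGGAAGT, or ACTTCCTC, which contains the shorter one, stood in 1 of 35 windows (2.86%) and in 802 of 32851 (2.44%). A match is a string of letters and not a measured binding site. Windows of 5 genes are given 5′ to 3′ on the gene's own strand, with the match in capitals. They were taken from 4 of the roles described below and lie upstream of each gene's own annotated body. C1qb, Fcgr1, Ctss and F13a1 had the order of tumors that most of the listed genes had, and Stab1 did not. The windows are chr4:136886201-136886450 (minus strand) for C1qb, chr3:96293970-96294219 (minus) for Fcgr1, chr3:95526536-95526785 (plus) for Ctss, chr13:37050245-37050494 (minus) for F13a1 and chr14:31168642-31168891 (minus) for Stab1.
C1qb: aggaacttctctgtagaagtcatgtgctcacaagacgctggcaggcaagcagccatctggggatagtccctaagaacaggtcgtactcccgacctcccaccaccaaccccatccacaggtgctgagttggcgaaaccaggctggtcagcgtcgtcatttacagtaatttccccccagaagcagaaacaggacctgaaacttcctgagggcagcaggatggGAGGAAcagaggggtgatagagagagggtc
Fcgr1: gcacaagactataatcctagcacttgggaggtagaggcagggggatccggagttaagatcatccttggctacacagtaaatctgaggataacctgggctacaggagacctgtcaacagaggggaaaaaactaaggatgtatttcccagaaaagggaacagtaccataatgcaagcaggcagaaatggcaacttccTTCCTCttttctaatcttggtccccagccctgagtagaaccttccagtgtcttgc
Ctss: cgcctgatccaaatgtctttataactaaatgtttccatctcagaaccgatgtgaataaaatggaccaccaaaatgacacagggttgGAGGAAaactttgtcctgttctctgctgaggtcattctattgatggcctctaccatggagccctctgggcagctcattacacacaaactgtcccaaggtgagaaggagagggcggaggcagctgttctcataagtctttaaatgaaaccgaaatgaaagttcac
F13a1: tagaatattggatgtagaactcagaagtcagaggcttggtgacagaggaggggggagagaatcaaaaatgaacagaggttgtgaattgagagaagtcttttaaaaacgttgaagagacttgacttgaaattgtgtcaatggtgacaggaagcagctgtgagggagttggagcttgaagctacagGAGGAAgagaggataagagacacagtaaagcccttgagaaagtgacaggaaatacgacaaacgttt
Stab1: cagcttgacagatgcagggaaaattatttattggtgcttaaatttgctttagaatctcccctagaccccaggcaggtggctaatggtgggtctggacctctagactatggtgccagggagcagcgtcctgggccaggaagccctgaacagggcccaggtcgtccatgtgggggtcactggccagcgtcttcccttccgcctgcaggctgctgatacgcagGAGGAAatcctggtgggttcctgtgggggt
The match began 30 bases before the start site in C1qb, 55 in Fcgr1, 164 in Ctss and 66 in F13a1. Stab1, whose levels went another way, also held the letters, 30 bases before its start site, and another F13a1 window, not shown, did not.

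Depth and composition differed between the libraries. The steps between low values put 7285731 to 17546082 reads behind a tumor, the fewest behind SS18-SSX2 tumor 2. There 1 read in a gene of 1 kb was worth 0.137 FPKM, against 0.0570 to 0.0751 FPKM in the other 5 tumors. The sarcoma markers Tle1, at 23.3 to 37.0 FPKM, and Bcl2, at 3.32 to 10.7 FPKM, were present in all 6 tumors. Sox2 stood at 9.55 to 40.7 FPKM, lowest in SS18-SSX2 tumor 2. Its genotypes did not overlap, as for 8.72% of all tested genes. The 8 sarcoma genes averaged a log2(FPKM + 1) of 4.32, 4.07 and 3.82 in SS18-SSX1 tumors 1, 2 and 3. In SS18-SSX2 tumors 1, 2 and 3 they averaged 4.21, 3.58 and 4.16. The lowest averages were those of SS18-SSX1 tumors 2 and 3 and SS18-SSX2 tumor 2. Skeletal muscle fibre genes were high in tumor 2 of both genotypes and mast cell genes in SS18-SSX1 tumor 3, and their values are given below beside the results they move with.

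The listed genes were present in every tumor and covered a wide range of levels. For tumors 1, 2 and 3 of SS18-SSX1 their median was 1.68, 7.41 and 8.37 FPKM, and for those of SS18-SSX2 it was 3.61, 12.3 and 3.13 FPKM. SS18-SSX2 tumor 2 was the highest and SS18-SSX1 tumor 1 the lowest, and the genotypes overlapped. In SS18-SSX1 tumor 1, 10 of the 36 genes stood under 1 FPKM, while none did in SS18-SSX1 tumor 2 or SS18-SSX2 tumor 2. The 36 genes together held 0.196% (SS18-SSX1 tumor 1) to 0.497% (SS18-SSX1 tumor 3) of a tumor's summed FPKM, with 0.470% in SS18-SSX2 tumor 2. The summed FPKM of all genes ran from 259460 in SS18-SSX2 tumor 1 to 442195 in SS18-SSX2 tumor 2. Apoe alone made up 44.1% to 56.6% of the summed FPKM of the 36 genes and Ctsb 7.79% to 26.9%.

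**Figure D1:**
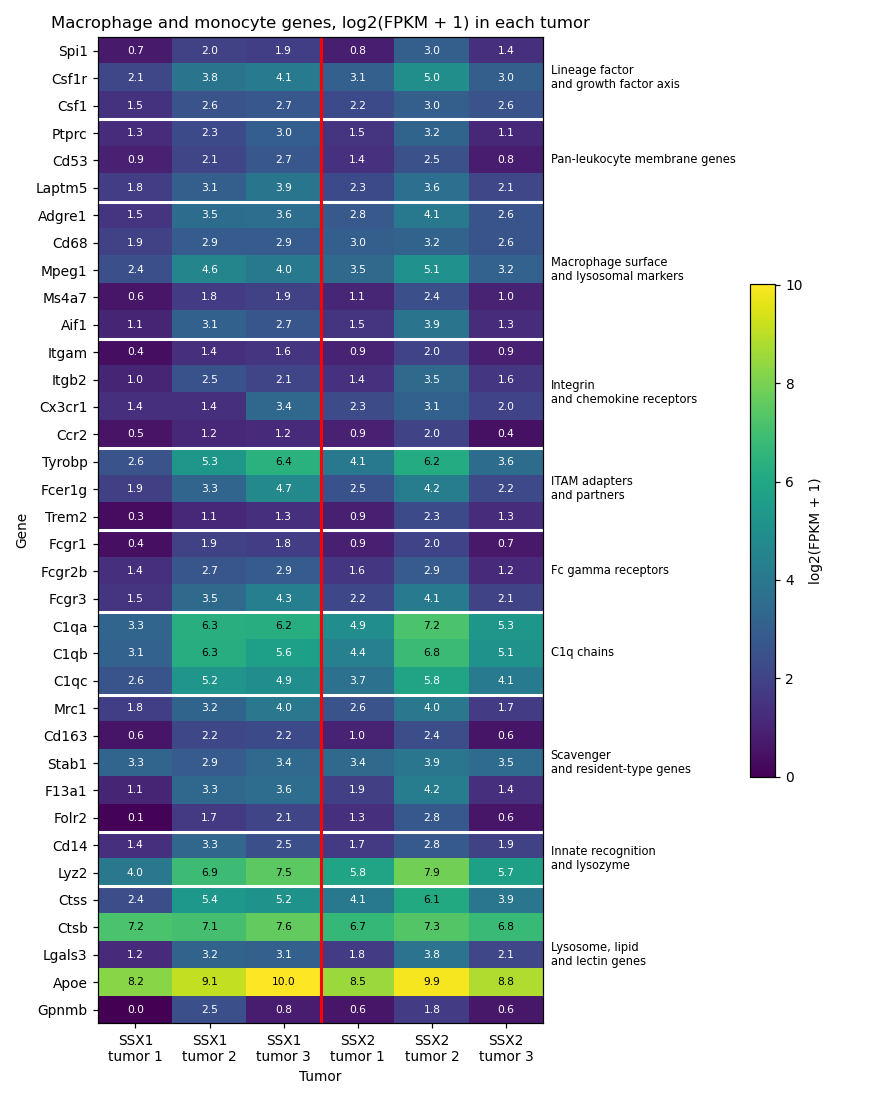
Levels of the 36 macrophage and monocyte genes as log2(FPKM + 1), printed in each cell, with genes in rows grouped by role and the 6 tumors in columns (SSX1 and SSX2 stand for SS18-SSX1 and SS18-SSX2, divided by the red line). Apoe is the highest row, at 302 to 1039.6 FPKM, and SS18-SSX1 tumors 2 and 3 and SS18-SSX2 tumor 2 are brighter than the other 3 tumors in 30 of the 36 rows.

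Most of the listed genes ranked the tumors alike. SS18-SSX1 tumors 2 and 3 and SS18-SSX2 tumor 2 were the 3 highest tumors for 30 of the 36 genes, against 12.5% of all tested genes, which is called the common order here. The exceptions were Csf1, Cd68, Cx3cr1, Trem2, Ctsb and Stab1. SS18-SSX2 tumor 2 held the highest value of 25 genes, against 17.2% of all tested genes. SS18-SSX1 tumor 1 held the lowest value of 27 genes, against 17.3% of all tested genes. As a share of a gene's own mean over the 6 tumors, the median of the 36 genes was 24.96% in SS18-SSX1 tumor 1, 112% in SS18-SSX1 tumor 2 and 135% in SS18-SSX1 tumor 3. In SS18-SSX2 tumors 1, 2 and 3 it was 52.7%, 200.5% and 49.95%. Over all tested genes the same medians lay between 90.9% and 99.9%. The 36 genes are not independent of one another, since they share libraries and, as markers of one lineage, cells, and the counts are descriptions of these 6 tumors.

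**Figure D2:**
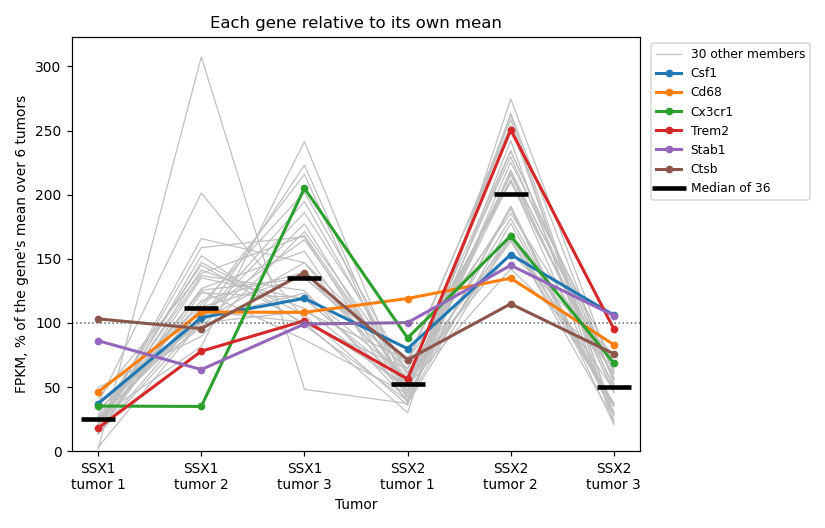
FPKM of each of the 36 genes as a percentage of that gene's mean over the 6 tumors, by tumor; a line joins the values of 1 gene, black bars mark the median of the 36 genes, and the 6 genes with another order of tumors are coloured. The medians run from 24.96% in SS18-SSX1 tumor 1 to 200.5% in SS18-SSX2 tumor 2, and the lines of Stab1 and Ctsb are the flattest.

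The first group holds the lineage factor and the growth factor axis. Spi1, which encodes PU.1, stood at 0.641, 2.88 and 2.64 FPKM under SS18-SSX1 and 0.792, 7.23 and 1.602 FPKM under SS18-SSX2, where the values are those of tumors 1, 2 and 3 of a genotype, as in all that follows. Csf1r, the receptor of CSF1, stood at 3.34, 13.3 and 15.9 FPKM under SS18-SSX1 and 7.47, 30.3 and 7.20 FPKM under SS18-SSX2. Both genes were lowest in SS18-SSX1 tumor 1 and highest in SS18-SSX2 tumor 2, and for both the genotypes overlapped. Csf1, the ligand, varied less, at 1.74, 4.87 and 5.58 FPKM under SS18-SSX1 and 3.74, 7.17 and 4.96 FPKM under SS18-SSX2. Its value in SS18-SSX2 tumor 3 was above that in SS18-SSX1 tumor 2, which removed it from the common order. Receptor exceeded ligand in every tumor, with a Csf1r to Csf1 ratio of FPKM between 1.45 (SS18-SSX2 tumor 3) and 4.22 (SS18-SSX2 tumor 2). The ratio to Adgre1, a surface receptor that defines mouse macrophages, was steadier for Csf1r, between 1.24 and 1.94.

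Surface and lysosomal markers of macrophages followed Csf1r. Adgre1 stood at 1.92, 10.6 and 11.3 FPKM under SS18-SSX1 and 6.00, 15.6 and 5.04 FPKM under SS18-SSX2. Mpeg1, which encodes the pore-forming protein perforin-2 of phagosomes, ranged between 4.45 FPKM (SS18-SSX1 tumor 1) and 32.9 FPKM (SS18-SSX2 tumor 2). Aif1, a calcium-binding protein of the macrophage cytoskeleton, ranged from 1.08 to 13.4 FPKM and Ms4a7, a membrane protein of macrophages, from 0.523 to 4.44 FPKM, with the same tumors at the ends. Cd68, a lysosomal glycoprotein, was the exception, at 2.81, 6.59 and 6.57 FPKM under SS18-SSX1 and 7.23, 8.19 and 5.04 FPKM under SS18-SSX2. Its level in SS18-SSX2 tumor 1 was above both of the higher SS18-SSX1 tumors. Relative to Adgre1 it therefore varied from 0.525 in SS18-SSX2 tumor 2 to 1.46 in SS18-SSX1 tumor 1.

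Genes of all leukocytes placed SS18-SSX1 tumor 3 nearer the top. Laptm5, a lysosomal membrane protein of blood cells, stood at 2.58, 7.29 and 13.7 FPKM under SS18-SSX1 and 3.78, 11.5 and 3.36 FPKM under SS18-SSX2. Cd53, a tetraspanin of leukocytes, was also highest in SS18-SSX1 tumor 3, at 5.65 FPKM, and lowest in SS18-SSX2 tumor 3, at 0.696 FPKM. Ptprc, the CD45 phosphatase that marks leukocytes, ranged between 1.18 FPKM (SS18-SSX2 tumor 3) and 8.29 FPKM (SS18-SSX2 tumor 2), with 6.94 FPKM in SS18-SSX1 tumor 3. These 3 genes are also expressed by mast cells and lymphocytes, whose markers are given below.

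Among integrin and chemokine receptors, Itgam and Itgb2, the alpha and beta chains of the complement receptor 3 integrin, kept the common order. Itgb2 ranged between 1.03 FPKM (SS18-SSX1 tumor 1) and 10.1 FPKM (SS18-SSX2 tumor 2), and Itgam from 0.294 to 3.01 FPKM in the same tumors. Relative to Adgre1, Itgam was the steadiest of the other 35 genes, with a highest ratio 1.26 times the lowest over the 6 tumors. Ccr2, the receptor that brings monocytes into tissue, was low throughout, between 0.360 FPKM (SS18-SSX2 tumor 3) and 3.11 FPKM (SS18-SSX2 tumor 2). Cx3cr1, the fractalkine receptor of monocytes and resident macrophages, stood at 1.59, 1.57 and 9.23 FPKM under SS18-SSX1 and 3.97, 7.56 and 3.09 FPKM under SS18-SSX2. It was therefore as low in SS18-SSX1 tumor 2 as in SS18-SSX1 tumor 1, unlike the 30 listed genes with the common order, and unlike Csf1, Cd68 and Trem2. The annotated Cx3cr1 gene (chr9:119901616-120069879) overlaps others, including Gorasp1, Csrnp1 and Xirp1 on its own strand, and the sources used here do not say how shared reads were assigned.

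Both ITAM adapters, which pass signals from surface receptors, had their highest value in SS18-SSX1 tumor 3, and their partner Trem2 in SS18-SSX2 tumor 2. Tyrobp, the adapter DAP12, stood at 4.93, 38.1 and 83.5 FPKM under SS18-SSX1 and 15.7, 71.5 and 10.7 FPKM under SS18-SSX2. Fcer1g, the common gamma chain of Fc receptors, stood at 2.72, 8.53 and 25.2 FPKM under SS18-SSX1 and 4.73, 17.8 and 3.66 FPKM under SS18-SSX2. Both were lower in SS18-SSX2 tumor 2 than in SS18-SSX1 tumor 3, the reverse of Adgre1 and Csf1r. Trem2, a lipid-sensing receptor that signals through Tyrobp, stood at 0.273, 1.17 and 1.53 FPKM under SS18-SSX1 and 0.849, 3.77 and 1.44 FPKM under SS18-SSX2. Adapter and receptor did not keep a constant ratio, since Tyrobp exceeded Trem2 by 54.5 times in SS18-SSX1 tumor 3 and by 7.48 times in SS18-SSX2 tumor 3. Fcer1g is also a chain of the high-affinity IgE receptor of mast cells, and Fcer1a, the alpha chain of that receptor, reached 167 FPKM in SS18-SSX1 tumor 3 against 0.204 to 3.66 FPKM in the other 5 tumors.

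Fc gamma receptors, which bind IgG, split between SS18-SSX1 tumor 3 and SS18-SSX2 tumor 2. Fcgr3, an activating receptor, stood at 1.86, 9.96 and 19.3 FPKM under SS18-SSX1 and 3.49, 15.9 and 3.17 FPKM under SS18-SSX2. Fcgr2b, the inhibitory receptor, was highest in the same tumor at 6.5003 FPKM, close to 6.35 FPKM in SS18-SSX2 tumor 2. Fcgr1, the high-affinity receptor of monocytes and macrophages, was highest in SS18-SSX2 tumor 2, at 3.07 FPKM, and lowest in SS18-SSX1 tumor 1, at 0.319 FPKM. Its relative Fcgr4, which is not among the 36 genes, was highest in tumor 2 of each genotype, at 7.46 FPKM under SS18-SSX1 and 6.12 FPKM under SS18-SSX2, with 1.497 FPKM in SS18-SSX1 tumor 3. Fcgr2b (chr1:170958617-170976547), Fcgr3 (chr1:171051174-171064935) and Fcer1g (chr1:171229572-171234365) lie close together on chromosome 1. Fcgr2b and Fcgr3 are similar in sequence, so their split of reads is uncertain.

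Complement C1q is assembled from 3 chains whose genes lie side by side on chromosome 4, C1qb at chr4:136880129-136886187, C1qc at chr4:136889804-136893065 and C1qa at chr4:136895917-136898803. C1qa stood at 8.66, 76.2 and 74.0 FPKM under SS18-SSX1 and 29.4, 144 and 38.04 FPKM under SS18-SSX2. C1qb stood at 7.80, 75.8 and 48.8 FPKM under SS18-SSX1 and 19.6, 112 and 34.3 FPKM under SS18-SSX2, and C1qc ranged from 5.06 to 56.1 FPKM. For all 3 chains SS18-SSX1 tumor 1 was lowest and SS18-SSX2 tumor 2 highest. The chains kept their proportions while their level changed, with a highest C1qa of 16.7 times its lowest. C1qa to C1qb lay between 1.00 and 1.52 in all 6 tumors, C1qa to C1qc between 1.71 and 2.58, and C1qb to C1qc between 1.54 and 2.11.

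Scavenger receptors and genes of resident-type macrophages held Folr2 and Stab1. Among the 35 tested listed genes, the ratio of the highest to the lowest tumor was largest for Folr2, while Stab1 varied little. Folr2, a folate receptor of resident macrophages, stood at 0.0696, 2.29 and 3.33 FPKM under SS18-SSX1 and 1.53, 5.85 and 0.516 FPKM under SS18-SSX2. The lowest value rested on 1 recovered read in SS18-SSX1 tumor 1, and SS18-SSX2 tumor 2, with 46 reads, was 84.1 times higher over depth (95% exact binomial interval 14.4 to 3392, which covers counting error only). The reads and the interval rest on the smallest gene length that fitted, so the reads may miss a common factor. F13a1, a coagulation factor chain made by monocytes and macrophages, ranged between 1.07 FPKM (SS18-SSX1 tumor 1) and 17.3 FPKM (SS18-SSX2 tumor 2). Cd163, the haemoglobin scavenger receptor, stood at 0.468, 3.54 and 3.73 FPKM under SS18-SSX1 and 0.935, 4.25 and 0.465 FPKM under SS18-SSX2. Its lowest values, in SS18-SSX1 tumor 1 and SS18-SSX2 tumor 3, were nearly equal. Mrc1, the mannose receptor, stood at 2.60, 8.31 and 15.0 FPKM under SS18-SSX1 and 4.96, 15.3 and 2.32 FPKM under SS18-SSX2. Relative to Adgre1, Mrc1 was lowest in SS18-SSX2 tumor 3, at 0.460, and highest in SS18-SSX1 tumor 1, at 1.35.

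Stab1, a scavenger receptor shared by macrophages and sinusoidal endothelium, was the only one of the 36 genes whose genotypes did not overlap. It stood at 8.52, 6.30 and 9.81 FPKM under SS18-SSX1 and 9.91, 14.3 and 10.5 FPKM under SS18-SSX2. All 3 SS18-SSX2 values were above all 3 SS18-SSX1 values, the closest pair by 0.109 FPKM. Among all tested genes 8.72% had genotypes that did not overlap in either direction, so 1 of 36 is below that background. Stab1 was lowest in SS18-SSX1 tumor 2 and not in SS18-SSX1 tumor 1, where its ratio to Adgre1 reached 4.43, against 0.596 in SS18-SSX1 tumor 2. Of 8 endothelial genes 6 were also lowest in SS18-SSX1 tumor 2, among them Cdh5, the cadherin of vessel walls, at 2.55 FPKM there and 5.78 to 32.7 FPKM elsewhere. The transcription factor gene Erg went the other way within SS18-SSX1, with 7.15 FPKM in tumor 2, and Vwf was lowest in SS18-SSX1 tumor 3, at 1.62 FPKM. The endothelial mean log2(FPKM + 1) was low in SS18-SSX2 tumor 2 as well, at 1.83, where Stab1 was highest. Erg was named after its values were seen. The part of endothelial RNA in the Stab1 values was not tested.

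Lyz2 and Cd14 serve innate defence. Lyz2, lysozyme of macrophages, stood at 15.4, 116 and 179 FPKM under SS18-SSX1 and 56.6, 234 and 50.3 FPKM under SS18-SSX2. Its near-identical copy Lyz1 stood at 2.06 FPKM or less, and the sources used here do not say how reads that match both were handled. Cd14, the lipopolysaccharide co-receptor, stood at 1.62, 8.78 and 4.50 FPKM under SS18-SSX1 and 2.23, 6.20 and 2.84 FPKM under SS18-SSX2, and with Gpnmb it was 1 of 2 genes highest in SS18-SSX1 tumor 2.

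Lysosomal, lipid and lectin genes ranged from the common order to nearly level values. Ctss, a cathepsin of antigen-presenting cells, stood at 4.31, 39.8 and 34.9 FPKM under SS18-SSX1 and 15.7, 67.6 and 14.4 FPKM under SS18-SSX2. Ctsb, a cathepsin that most cells make, stood at 145, 135 and 196 FPKM under SS18-SSX1 and 100.5, 162 and 107 FPKM under SS18-SSX2. The ratio of Ctsb to Ctss accordingly ran from 2.39 in SS18-SSX2 tumor 2 to 33.7 in SS18-SSX1 tumor 1. Apoe, the lipid carrier, stood at 302, 544 and 1039.6 FPKM under SS18-SSX1 and 361, 938 and 456 FPKM under SS18-SSX2. Lgals3, the lectin galectin-3, ranged between 1.33 FPKM (SS18-SSX1 tumor 1) and 13.1 FPKM (SS18-SSX2 tumor 2). Gpnmb, a glycoprotein of lipid-laden macrophages, osteoclasts and pigment cells, stood at 0.0198, 4.49 and 0.705 FPKM under SS18-SSX1 and 0.544, 2.46 and 0.550 FPKM under SS18-SSX2. SS18-SSX1 tumor 2, with 235 recovered reads against 1 in SS18-SSX1 tumor 1, was 227 times higher over depth (95% exact binomial interval 40.4 to 9015). As for Folr2, the reads rest on the smallest length that fitted and may miss a common factor.

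The comparison of SS18-SSX2 with SS18-SSX1 asks whether macrophage RNA differs with the form of the fusion, and no difference was detected in any of the listed genes. With limma on log2(FPKM + 1), 0 of the 35 tested genes passed an adjusted p of 0.05, where 9 of all 13873 tested genes did (0.0649%). At an unadjusted p under 0.05 the counts were 0 of 35 and 689 of 13873 (4.97%). The smallest p among the listed genes was 0.143, for Stab1, and every adjusted p was 0.997. Log2 fold changes, positive where SS18-SSX2 was higher, ran from -0.41 for Fcgr2b to 0.54 for C1qa, with 20 genes above 0 and 15 below. Their median was 0.16, beside 0.01 over all tested genes. Standard errors ran from 0.28 to 1.02 with a median of 0.63, against 0.33 over all tested genes, so the genotype difference was measured less precisely for these genes than for most.

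Individual fold changes were small beside their errors. Csf1r averaged 10.9 ± 6.65 FPKM in SS18-SSX1 and 15.0 ± 13.3 FPKM in SS18-SSX2 (SD, n = 3 each), a log2 fold change of 0.35 ± 0.67 (SE). For C1qa the means were 53.0 ± 38.4 and 70.6 ± 64.0 FPKM and the log2 fold change 0.54 ± 0.90. Lyz2 averaged 104 ± 82.6 and 114 ± 104 FPKM, with 0.34 ± 0.95. Tyrobp averaged 42.2 ± 39.4 FPKM in SS18-SSX1 and 32.7 ± 33.8 FPKM in SS18-SSX2, with a log2 fold change of -0.15 ± 1.02. The SDs approach or pass the means for Tyrobp and, in SS18-SSX2, for C1qa, Csf1r and Lyz2. Smaller errors went with genes that varied less between tumors of a genotype, among them Stab1 with 0.45 ± 0.28, Cd68 with 0.35 ± 0.36, Csf1 with 0.38 ± 0.41 and Ctsb with -0.38 ± 0.34.

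**Figure D3:**
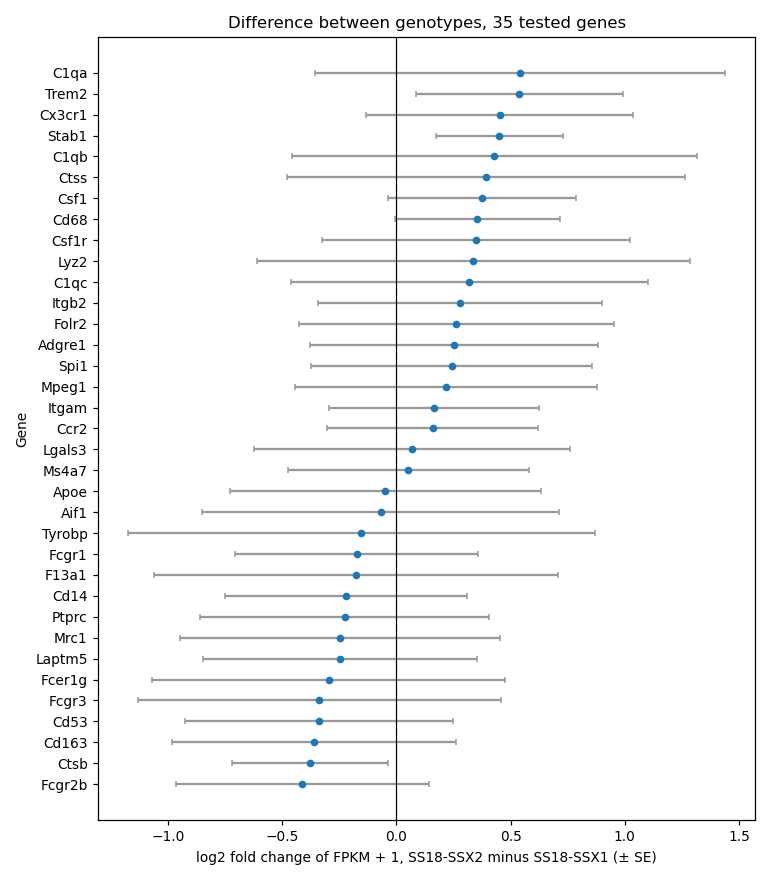
Log2 fold change of FPKM + 1 (SS18-SSX2 minus SS18-SSX1, n = 3 tumors each) for the 35 tested genes, sorted by size; points are estimates and bars are ± 1 SE from limma. Estimates lie between -0.41 and 0.54, and only the bars of Trem2, Stab1 and Ctsb stay clear of 0 by eye, with p of at least 0.143.

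The spread lay within the genotypes. For all 36 genes the range of log2(FPKM + 1) within at least 1 genotype was wider than the difference between genotype means, which was also true of 95.7% of all tested genes. The highest tumor of a genotype exceeded the lowest by a median of 5.89 times in SS18-SSX1 and 4.71 times in SS18-SSX2, against 1.94 and 1.65 times over all tested genes. Leaving out a single tumor turned the direction of the median. The median log2 fold change was -0.50 without SS18-SSX1 tumor 1 (4 genes above 0 and 31 below) and -0.40 without SS18-SSX2 tumor 2 (5 above and 30 below). It was 0.40 without SS18-SSX1 tumor 3 (31 above and 4 below) and 0.40 without SS18-SSX2 tumor 3 (32 above and 3 below). No listed gene was called without any 1 tumor, and the smallest adjusted p was 0.697, for Cx3cr1 without SS18-SSX1 tumor 3.

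Markers of other cell types moved with some of these values. The mean log2(FPKM + 1) of the 36 genes was 1.88, 3.45 and 3.67 under SS18-SSX1 and 2.59, 4.11 and 2.49 under SS18-SSX2. Skeletal muscle fibre genes (16 of 16 in the table) averaged 3.57, 8.26 and 3.77 under SS18-SSX1 and 2.58, 7.16 and 2.70 under SS18-SSX2. Among the 16 muscle genes 10 had the common order. Muscle was highest in tumor 2 of both genotypes, which are also among the 3 highest for macrophage genes, while SS18-SSX1 tumor 3 was high for macrophage genes with muscle near the level of SS18-SSX1 tumor 1. With the muscle level as a covariate 28 of 35 listed genes had a positive log2 fold change, with a median of 0.36, and without tumor 2 of both genotypes 11 of 35 did, with a median of -0.19. No listed gene was called in either fit. The part of muscle RNA in the macrophage values was otherwise not tested.

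Mast cell genes (8 of 8 in the table) averaged 3.32, 2.62 and 6.75 under SS18-SSX1 and 1.88, 2.60 and 1.27 under SS18-SSX2. Their summed level was 2370.5 FPKM in SS18-SSX1 tumor 3 and 13.8 to 103 FPKM in the other 5 tumors. In SS18-SSX1 tumor 3 lay the highest values of 9 listed genes, namely Cd53, Laptm5, Cx3cr1, Tyrobp, Fcer1g, Fcgr2b, Fcgr3, Ctsb and Apoe. These 9 of 36 (25%) are near the 24.6% of all tested genes, so the count does not set the listed genes apart. The macrophage markers Adgre1, Csf1r, Mpeg1 and C1qa were highest elsewhere, in SS18-SSX2 tumor 2, although Adgre1 and Csf1r were second highest in SS18-SSX1 tumor 3. The part of mast cell RNA in the 9 genes was not tested.

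Fibroblast genes (8 of 8 in the table) averaged 3.28, 6.10 and 4.54 under SS18-SSX1 and 5.45, 5.71 and 5.53 under SS18-SSX2. They were lowest in SS18-SSX1 tumor 1, where 5 of the 8 genes had their lowest value, as 27 of the 36 listed genes did. Dcn, the matrix proteoglycan decorin, stood at 6.27 FPKM there and at 84.9 to 138 FPKM in the other 5 tumors. The part of fibroblast RNA in the macrophage values was not tested.

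Lymphocyte and granulocyte markers were lower than macrophage markers in most tumors. B and plasma cell genes (9 of 9) averaged 4.04 in SS18-SSX2 tumor 2, 1.86 in SS18-SSX1 tumor 2 and 0.475 to 0.734 in the other 4 tumors. T and NK cell genes (10 of 13 in the table) averaged 1.503 in SS18-SSX2 tumor 2 and 0.335 to 1.03 elsewhere, with Cd3e at 0.0485 to 1.82 FPKM. Neutrophil genes (5 of 12 in the table) averaged 0.109 to 1.52, and the calprotectin chain S100a8 did not exceed 2.47 FPKM and was listed at 0 in SS18-SSX1 tumor 1. SS18-SSX2 tumor 2, the highest for macrophage genes, was thus also the highest for lymphocyte genes and the second for muscle, and the part of these cells in shared genes such as Ptprc was not tested.

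**Figure D4:**
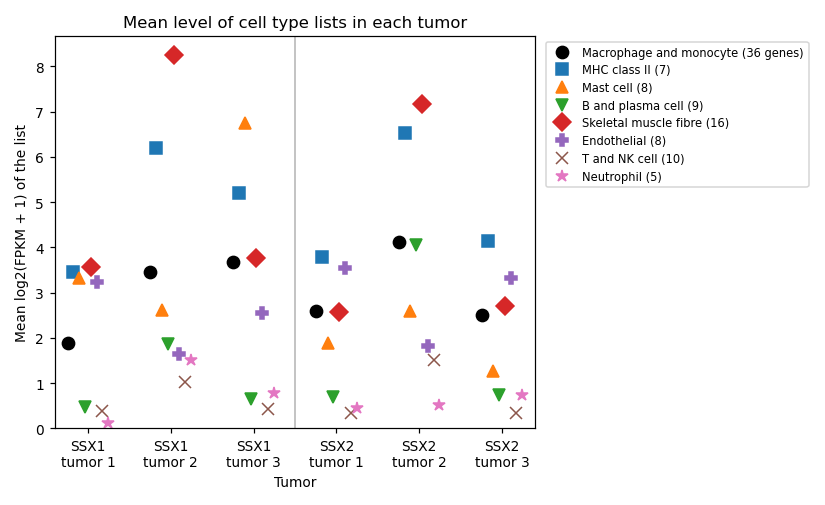
Mean log2(FPKM + 1) of 8 cell type lists in each of the 6 tumors, 1 symbol per list, with the number of genes in the table in brackets; symbols are set side by side within a tumor and the vertical line divides the genotypes. Macrophage and monocyte genes (black circles) run from 1.88 to 4.11, muscle genes reach 8.26 and 7.16 in tumor 2 of SS18-SSX1 and SS18-SSX2, and mast cell genes reach 6.75 in SS18-SSX1 tumor 3.

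Genes of related function outside the 36 were read from wider lists, and none of their tested genes passed an adjusted p of 0.05 with limma. MHC class II genes, which present antigen on macrophages, dendritic cells and B cells, had the common order in 7 of 7 genes. Their invariant chain Cd74 stood at 50.1, 459 and 170 FPKM under SS18-SSX1 and 63.2, 568 and 85.5 FPKM under SS18-SSX2. Among 16 signalling and transcription factors of macrophages 11 had the common order, including Irf8, with its highest value, 6.79 FPKM, in SS18-SSX2 tumor 2 and its lowest, 0.490 FPKM, in SS18-SSX1 tumor 1. Irf8 was chosen as an example after its values were seen.

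Ligands for macrophages and monocytes were in the table for 13 of 17 genes, and 8 were tested. Ccl8, a chemokine for monocytes, stood at 3.53, 57.4 and 70.7 FPKM under SS18-SSX1 and 8.62, 185 and 5.04 FPKM under SS18-SSX2, the order of most of the 36 genes. Cxcl12 stood at 43.4, 52.5 and 41.3 FPKM under SS18-SSX1 and 27.5, 26.4 and 25.2 FPKM under SS18-SSX2, without overlap. Its limma p of 0.0104 became an adjusted p of 0.693, and 8.72% of all tested genes also had no overlap. Cx3cl1, the ligand of the receptor Cx3cr1, stood at 3.26, 18.9 and 9.64 FPKM under SS18-SSX1 and 19.4, 20.9 and 22.9 FPKM under SS18-SSX2, and limma gave it an unadjusted p of 0.0497. The limma adjusted p of Cx3cl1 was 0.997. Cxcl12 and Cx3cl1 were the only 2 of the 8 tested ligands with a limma p under 0.05, beside 4.97% of all tested genes. The receptor did not follow its ligand, since Cx3cr1 was highest in SS18-SSX1 tumor 3.

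The monocyte markers Ly6c2 and Plac8 were low in most tumors. Ly6c2, which marks inflammatory monocytes, was listed at 0 in SS18-SSX1 tumor 1 and SS18-SSX2 tumor 3 and reached 1.72 FPKM in SS18-SSX2 tumor 2. Plac8 was also highest there, at 6.21 FPKM. The highest means in the monocyte list were those of Fn1, at 17.2 to 302 FPKM, and Vcan, matrix genes that many mesenchymal cells make. Vcan stood at 14.7, 26.3 and 17.2 FPKM under SS18-SSX1 and 76.3, 34.7 and 45.6 FPKM under SS18-SSX2 without overlap, as for 8.72% of all tested genes. It was the only gene of 9 tested in that list with a limma p under 0.05, beside 4.97% of all tested genes. That p of 0.00586 became an adjusted p of 0.593.

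Activation and complement genes had the common order in part. Of the inflammatory genes 8 of 13 had the common order, and Cybb, the catalytic subunit of the phagocyte oxidase, ranged from 0.789 to 6.31 FPKM. Of the genes of alternative activation 3 of 7 did, and Arg1, arginase of such macrophages, stood at 15.0 FPKM in SS18-SSX2 tumor 2 against 0.712 to 3.07 FPKM elsewhere. Among complement genes outside C1q 3 of 11 had the common order. C1ra, a serine protease that binds C1q, stood at 8.95, 24.2 and 98.1 FPKM under SS18-SSX1 and 47.1, 71.0 and 32.0 FPKM under SS18-SSX2, an order unlike that of the C1q chains. Of 21 lysosome and lipid genes 5 had it, and Psap, the precursor of the saposins, varied only from 366 to 610.2 FPKM.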

How the data were processed

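Bulk RNA of 6 leg tumors was measured as ribosomal-RNA-depleted libraries, per the labels' protocols. The submitters' processing notes list Novoalign 2.08.03 and the build mm10 without a role. The authors deposited FPKM values, 1 column per tumor; the sources used here do not state the counting, gene models, strand or treatment of multiply matching reads. Symbols came from GENCODE mouse release 21, GRCm38 (17029 of 17312 identifiers matched). Depth and reads were worked out from FPKM steps of single-exon genes, where 77.3% to 81.7% of low values came out whole within 0.02 reads; 34 of the 36 genes gave reads, 15 with their annotated length and the rest with the smallest length that fitted, which can miss a common factor.

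The filter kept genes that reached 1 FPKM in 3 or more tumors. Log2(FPKM + 1) values were fitted by limma 3.58.1, R 4.3.3 (eBayes with a trend, two-sided, Benjamini-Hochberg over all 13873, threshold 0.05). The fit was checked on simulated data with changes far larger than those of the listed genes. That check does not show whether smaller changes would be detected. Fold changes on this scale understate changes of low genes. Motifs were searched on both strands of RefSeq promoters. The members and lists were chosen with earlier results of these data known. All members are named; other lists name up to 3 genes of highest mean and 2 of smallest p, and their cell type markers. Lists were described by counts, not tested. Alternatives changed the pseudocount, filter, scaling, variance model, replicate block, a muscle covariate and the tumors used. Tables used Python 3.11.15, pandas 2.3.3, numpy 2.4.6, scipy 1.17.1 and matplotlib 3.10.9.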

Additional observations from a re-analysis of the deposited data

How the results depend on the processing

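No macrophage or monocyte gene was called under any of the 18 alternatives. The count of all called genes was 9, and became 5 with a pseudocount of 0.1, 4 with the replicate block and 20 without tumor 2 of both genotypes, and 3 to 11 without any 1 tumor. The cause was not tested. The fits without any 1 tumor and without tumor 2 of both genotypes use fewer samples. The replicate block changed no call among the listed genes. Tumor numbers were not used as pairs in the main fit. Deviations of same-numbered tumors correlated at 0.38, 0.31 and -0.28 across genes for tumors 1, 2 and 3. Tumors 1 and 2 of each genotype correlated best with their own number, and tumor 3 did not. The deposited column names begin with N, A and B for tumors 1, 2 and 3 of both genotypes. These values do not settle whether the samples are paired. The direction of single genes was not stable. Csf1r turned to -0.04 without tumor 2 of both genotypes, and with the muscle covariate Mrc1 turned to 0.0094 and Tyrobp to 0.23. Without any 1 tumor the log2 fold change ran from -0.43 to 0.61 for Adgre1, -0.45 to 1.05 for C1qa, -0.0184 to 0.61 for Csf1, -0.29 to 0.72 for Csf1r, -0.71 to 1.02 for Lyz2, -0.87 to 0.28 for Mrc1 and -1.25 to 0.67 for Tyrobp. Among the 11 listed genes whose fold changes were compared between fits, Stab1, Cd68, Trem2 and Ctsb kept their direction without any 1 tumor. The median of the listed genes ran from -0.50 to 0.40 in those fits and was 0.02 with quantile normalization. Depth limits the low values in SS18-SSX2 tumor 2 most.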

Other observations

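A list of 15 genes of resident macrophages, which shares Folr2 with the 36, had 14 genes in the table and 9 tested. Its highest means were those of Selenop, a selenium carrier, at 94.5 to 198 FPKM, and Gas6, a ligand of phagocytic receptors, at 36.6 to 72.9 FPKM. Igf1 was highest in SS18-SSX1 tumor 1, at 95.6 FPKM against 13.02 to 28.8 FPKM elsewhere, the tumor in which 27 of the 36 macrophage and monocyte genes were lowest. On the brake that CD47 sets on macrophages, Cd47 stood at 13.5 to 21.3 FPKM and its receptor Sirpa at 8.91 to 19.7 FPKM, with limma p of 0.565 and 0.346 between genotypes.

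Acp5, a phosphatase of osteoclasts and some macrophages, stood at 134, 47.4 and 72.7 FPKM under SS18-SSX1 and 38.7, 105 and 28.9 FPKM under SS18-SSX2, so that its highest value lay in SS18-SSX1 tumor 1. Spp1, osteopontin, stood at 0.365, 372 and 2.39 FPKM under SS18-SSX1 and 4.59, 4.66 and 11.2 FPKM under SS18-SSX2. SS18-SSX1 tumor 2, the high one, also held the highest Gpnmb, at 4.49 FPKM. Spp1 was chosen after its values were seen.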
